A study of Rattus norvegicus with 4 samples.

Results

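The members described here are 123 genes of the solute carrier superfamily, counted in single cells of rat hippocampus. They are the genes whose symbol begins with Slc and a family number, or with Slco, and that had at least 500 UMIs (unique molecular identifiers, 1 for each captured transcript) over the whole matrix. Slc2a1, Slc2a5, Slco1a4, Slco1c1, Slc7a5, Slc3a2, Slc16a1, Slc22a8 and Slc38a5, most of them carriers of the blood-brain barrier, were left out by the rule, as were the mitochondrial carriers of family 25. Of 343 genes that matched the name pattern, 284 distinct symbols stayed after these exclusions, and 161 of those had under 500 UMIs, 22 of them 0. The members just inside the limit were Slc27a3, Slc44a4 and Slc38a6 with 548, 528 and 513 UMIs, and the genes just outside were Slc46a3, Slc16a13 and Slc37a1 with 498, 483 and 467. Together the members held 617993 UMIs, 0.342% of the matrix, with a median of 2396 UMIs per gene.

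Solute carriers are membrane proteins that move small molecules and ions across the plasma membrane or the membranes of organelles, by exchange, by cotransport with sodium, protons or chloride, or down a gradient. Members of a family are related in sequence and mostly share a kind of substrate. In brain, capillary endothelial cells pass nutrients through the blood-brain barrier with such carriers, and glia use them to clear transmitters, to supply the synthesis of myelin and to handle iron, zinc and haem.

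The cells came from hippocampi of male adult Sprague Dawley rats aged 10 to 12 months, all labelled wild type. The 4 titled libraries are NC, a negative control, MCAO, with the middle cerebral artery occluded on 1 side, and DEPR and MD, both described as chronically stressed. The design text tells of 2 groups of 10 rats, both operated on with a filament in the middle cerebral artery and 1 of them stressed afterwards, and of 5 hippocampi per group. It does not describe NC, and the labels do not spell out MD or say how many rats gave a library. The tissue was dissociated with enzymes and red cells were lysed before capture.

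All libraries stand in 1 pooled matrix of 31638 barcodes and 180847756 UMIs, whose barcodes end in the suffixes 1 to 4. The labels and files do not tie a suffix to a titled library, so the suffixes are described as sets 1 to 4, each with its own value, and no set is called control, stroke or stress. The sets held 36242408 to 54295520 UMIs and shared 96 of 31542 barcode sequences. Cells were sorted into gates by lists of marker genes, none of which is a member. The 6 gates with at least 20 cells in every set were microglia (11317 cells), oligodendrocytes (7944), endothelial cells (2778), T and NK cells (724), pericytes (482) and smooth muscle (330). A gate is a range of a marker score and not a proven type: 322, 16, 51, 41, 17 and 14 of these cells lay within 10% of a limit of their gate. No gate took 3189 cells (11.4%). The gates for astrocytes and neurons held 6 cells and 1 cell, although both types define this tissue, so their carriers were not measured; Slc1a2, the main astrocytic glutamate carrier, had 99 UMIs in all.

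Levels are UMIs of a gene per 1000000 UMIs (CPM) summed over the cells of a gate, in each set or over all sets. The libraries read 3′ ends, so that a transcript gives at most 1 count and CPM were not divided by gene length. A member was called carried by a gate when its CPM there was at least 2 times that of each of the other 5 gates in every set, with at least 20 UMIs; this is a rule of size with no test, since no set is a known replicate of another. By this rule 37 of 123 members (30.1%) were carried, against 16.3% of all 10333 genes with at least 500 UMIs that are no gate markers. The endothelial gate carried 13 members (10.6%, background 2.84%) and the oligodendrocyte gate 14 (11.4%, background 5.88%). The microglia gate carried 6 (4.88%, background 3.19%) and the pericyte gate 3 (2.44%, background 1.06%). T and NK cells carried 1 (0.813%, background 2.21%) and smooth muscle 0 (background 1.16%). The shares of these last 2 gates lay below the background. With clusters in place of the gates, 10 types entered, among them monocytes, border macrophages and erythroid cells. Then 18 members were carried, some of them not among the 37, and every call of the microglia and endothelial gates ended. The erythroid cluster scored 0.759 for its own markers and 0.285 for endothelial ones. Its part in the loss of the endothelial calls was not tested. With clusters of the same 6 types alone 33 were carried, and the calls of Slc1a1, Slc16a11 and Slc38a1 were among those that ended. Thinning cells to 1000 UMIs left out the 489, 338, 298 and 446 cells of sets 1 to 4 that had fewer. With cells so thinned, the calls of Slc6a9, Slc22a15, Slc26a10, Slc31a1, Slc39a3, Slc39a8 and Slco2b1 were among those that ended.

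**Figure D1:**
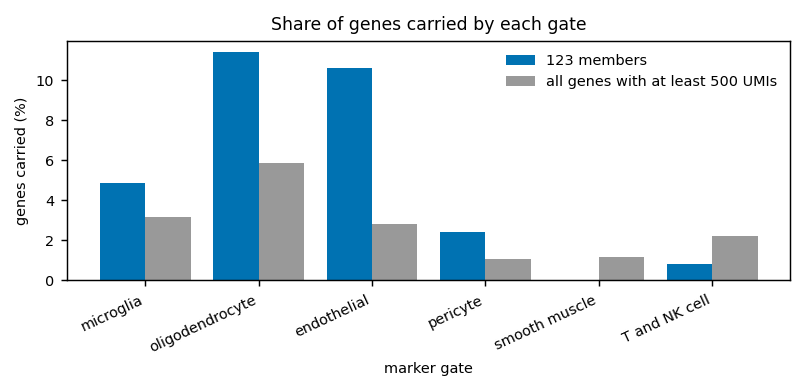
Share of genes carried by each of the 6 gates, in percent, for the 123 members and for all genes with at least 500 UMIs that are no markers. The endothelial gate carried 10.6% of the members against 2.84% of all genes, and smooth muscle carried no member.

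**Figure D2:**
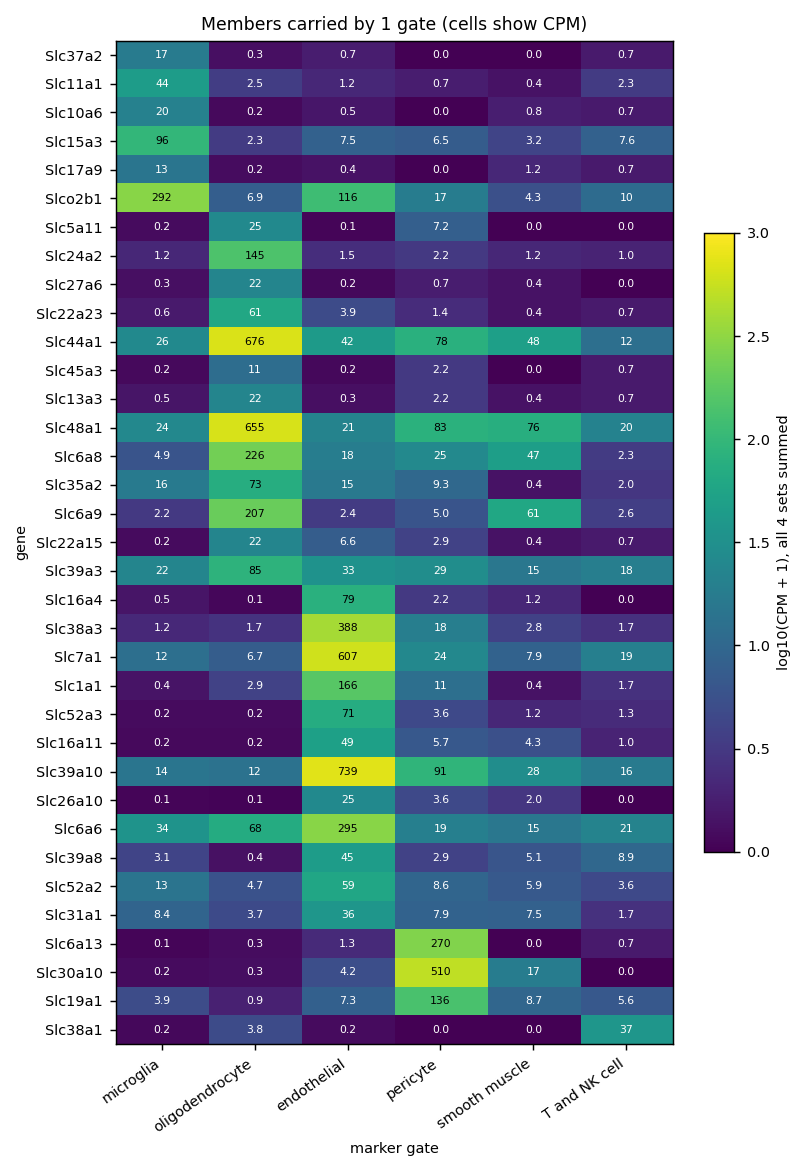
Level of 35 of the 37 carried members in the 6 gates, with colour on a log scale of CPM and the CPM over all sets printed in each cell. Slc39a10 (739 CPM), Slc44a1 (676 CPM) and Slco2b1 (292 CPM) were the most abundant carried members of the endothelial, oligodendrocyte and microglia gates.

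Members were grouped by role, and the counts by role stand beside the 16.3% of all genes that were carried, without a test. Carriers of amino acids, amino acid transmitters and peptides were the largest role, and 10 of these 31 members were carried. The endothelial gate carried 4. Slc7a1, which takes up arginine and lysine, stood at 512, 501, 715 and 679 CPM in endothelial cells of sets 1 to 4, and its next gate, pericytes, held 24.4 CPM over all sets. Slc38a3, a glutamine carrier coupled to sodium and protons, stood at 470.2, 421, 365 and 296 CPM against 17.9 in pericytes, and was highest in set 1 and lowest in set 4. Slc6a6, the taurine carrier, stood at 224, 289, 299.7 and 376 CPM, lowest in set 1, against 68.2 in oligodendrocytes. Slc1a1, a glutamate and cysteine carrier best known from neurons, stood at 282, 190.1, 86.4 and 77.3 CPM, high in sets 1 and 2. Over all sets no other of the 6 gates passed 11.5 CPM. Its ratio to the next gate was 8.96, 26.1, 20.3 and 17.1 in sets 1 to 4.

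Promoter windows are shown for Slc7a1 and Slc6a6, which the endothelial gate carried. Windows are also shown for Slc38a2, the most abundant amino acid carrier, which was spread over all gates, and for Slc7a11, which differed between sets. All are the 250 bases before the start site in the RefSeq build GRCr8, 5′ to 3′ on the strand of the gene, while the deposited counts were made on Rnor_6.0. The window of Slc7a1 is chr12:11664238-11664487 on the plus strand and that of Slc6a6 chr4:125752252-125752501 on the plus strand. The window of Slc38a2 is chr7:129742620-129742869 on the minus strand and that of Slc7a11 chr2:136668265-136668514 on the minus strand. Capitals mark matches on either strand to TGATGNAA, the core of the amino acid response element, or to TGACNNNGC, the core of the antioxidant response element, where N is any base; no match shown overlaps another.
Slc7a1: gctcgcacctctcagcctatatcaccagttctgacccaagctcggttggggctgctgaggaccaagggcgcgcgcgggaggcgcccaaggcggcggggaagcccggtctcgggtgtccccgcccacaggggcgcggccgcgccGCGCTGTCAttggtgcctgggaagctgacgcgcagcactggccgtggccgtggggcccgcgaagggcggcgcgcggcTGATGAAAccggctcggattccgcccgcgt
Slc6a6: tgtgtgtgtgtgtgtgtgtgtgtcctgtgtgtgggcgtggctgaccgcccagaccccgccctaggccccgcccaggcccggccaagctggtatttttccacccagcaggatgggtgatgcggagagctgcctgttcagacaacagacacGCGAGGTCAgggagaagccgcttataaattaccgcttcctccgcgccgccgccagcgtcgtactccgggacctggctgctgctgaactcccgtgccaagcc
Slc38a2: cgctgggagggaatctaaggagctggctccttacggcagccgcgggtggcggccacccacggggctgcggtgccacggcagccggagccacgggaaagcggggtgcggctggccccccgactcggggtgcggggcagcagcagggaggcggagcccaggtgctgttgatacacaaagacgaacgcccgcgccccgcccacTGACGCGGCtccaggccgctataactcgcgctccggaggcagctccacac
Slc7a11: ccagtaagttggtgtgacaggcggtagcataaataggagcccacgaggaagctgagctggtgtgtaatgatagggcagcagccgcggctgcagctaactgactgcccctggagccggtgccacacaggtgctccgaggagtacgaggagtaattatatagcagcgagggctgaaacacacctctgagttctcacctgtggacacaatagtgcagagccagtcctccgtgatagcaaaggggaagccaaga
Slc7a1 held the amino acid core on its own strand at 30 to 23 bases before the start, and the antioxidant core on the opposite strand at 107 to 99. Slc6a6 held the antioxidant core on the opposite strand at 101 to 93 bases before the start, and Slc38a2 held it on its own strand at 50 to 42. In Slc7a11 neither set of letters was in this window. Of 33469 promoter windows of this length, 3.4% held the amino acid core and 10.1% the antioxidant core. Of the 92 members with a window, 6 (6.52%) held the amino acid core, Slc7a1, Slc38a1, Slc9a9, Slc35a2, Slc1a4 and Slc49a4, and 21 (22.8%) held the antioxidant core. A member was counted for a match in any of its windows, and 4 members had more than 1. The shares over all windows count each window by itself, for genes at any level. All of these are matches of letters, and no binding was measured.

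The oligodendrocyte gate carried Slc6a8 and Slc6a9 of family 6, which moves transmitters and related molecules with sodium and chloride. Slc6a8, the creatine carrier, stood at 243, 231, 224 and 217 CPM in sets 1 to 4, nearly even. Slc6a9, the glycine carrier GlyT1, stood at 148, 133, 261 and 253 CPM and was higher in sets 3 and 4. The next gate of both was smooth muscle, with 46.9 and 60.6 CPM. Slc6a13, the GABA carrier GAT2, was carried by pericytes with 249.7, 277, 278 and 279 CPM, and endothelial cells, its next gate, held 1.3. Slc6a17, which loads vesicles with neutral amino acids, was shared by the mural cells, with 109 CPM in smooth muscle and 82.5 in pericytes, and at most 1.07 CPM in the other 4 gates.

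Microglia carried Slc15a3, which moves histidine and small peptides out of the endolysosome with protons, with 84.9, 81, 109 and 109 CPM in sets 1 to 4. Over all sets no other of the 6 gates passed 7.59 CPM, and the ratio to the next gate was 5.67, 5.56, 13.7 and 13.9. T and NK cells carried Slc38a1, a sodium-coupled carrier of glutamine and alanine, with 30, 64.3, 32.5 and 32 CPM from 111 UMIs, and set 2 was the highest.

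Slc38a2 and Slc1a3 were the most abundant amino acid carriers that no gate carried. Slc38a2, a sodium-coupled carrier of small neutral amino acids, had 407 CPM in oligodendrocytes, 246 in endothelial cells, 198 in T and NK cells and 147 in microglia. Oligodendrocytes stood at 513, 474, 366 and 336 CPM in sets 1 to 4, and their ratio to the endothelial gate was 2.19, 2.04, 1.42 and 1.31, past 2 in sets 1 and 2 alone. Slc1a3, the glial glutamate carrier GLAST, stood at 136, 142, 229 and 243 CPM in microglia and at 55.8, 43.7, 231 and 245 CPM in pericytes, so that the pericyte gate was far below microglia in sets 1 and 2 and level with it in sets 3 and 4. These pericyte values rest on 23, 6, 93 and 108 UMIs. Oligodendrocyte markers in the pericyte gate summed to 366, 451, 942 and 793 CPM, also higher in sets 3 and 4. That was 0.897%, 1.13%, 1.82% and 1.56% of their level in oligodendrocytes, which held 67.4 CPM of Slc1a3. Ependymal markers there summed to 1448, 1317, 937 and 1040 CPM, lower in sets 3 and 4, with 8 of 10 genes at 0. Ependymal cells held 604 CPM of Slc1a3. The part of either cell type in the pericyte values was not tested.

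Of 23 carriers of metals and haem 7 were carried, by 4 gates. Family 39 imports zinc and related metals into the cytosol. Its member Slc39a10 was the most abundant endothelial member, with 462, 445, 991 and 993 CPM in sets 1 to 4, and pericytes, its next gate, held 91.1. Sets 3 and 4 lay clearly above sets 1 and 2. Slc39a8, which also imports manganese, stood at 37.1, 35.3, 54.8 and 50.1 CPM in endothelial cells, and the copper importer Slc31a1 at 31.4, 36.9, 43 and 37.5. Slc39a3 was instead carried by oligodendrocytes, with 91.9, 88.7, 82.9 and 80.7 CPM, and its ratio to the next gate was only 2.11, 2.75, 2.3 and 2.68 in the 4 sets. The other 6 members of family 39 were carried by no gate.

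Slc48a1, which moves haem out of the endolysosome, was the most abundant metal or haem carrier of oligodendrocytes, with 446, 456, 790.0 and 810.1 CPM in sets 1 to 4 against 82.5 in pericytes. Slc30a10, a manganese exporter, was carried by pericytes with 412, 531, 497 and 605 CPM, and smooth muscle, its next gate, held 17.3. The pericyte sums are small: the exact Poisson 95% interval of Slc30a10 ran from 353 to 479 CPM in set 1 and from 535 to 682 in set 4, and such intervals cover counting error only. Slc11a1, the divalent metal carrier of phagosomes, was carried by microglia with 52.8, 52, 38.4 and 35 CPM, lower in sets 3 and 4. The related iron importer Slc11a2 was spread, with 44.2 CPM in oligodendrocytes, 26.1 in endothelial cells and 12.5 in microglia. Slc40a1, the iron exporter ferroportin, had 133 CPM in endothelial cells and 47.4 in pericytes. It was not carried, since the endothelial gate led by 8.67 and 6.05 times in sets 3 and 4 but stood at 0.940 and 0.981 times the next gate in sets 1 and 2.

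Of 17 carriers of organic ions, monocarboxylates, bile acids and hormones 7 were carried. Slco2b1, a carrier of steroid sulphates and other organic anions, was the most abundant microglia member, with 179, 173, 388 and 413 CPM in sets 1 to 4. Endothelial cells held 116 CPM, and the ratio between these gates was narrow, at 2.27, 2.13, 2.62 and 2.79; by the mean of per-cell CPM the call ended. Slc10a6, which takes up sulphated steroids, was carried by microglia with 27.2, 25.3, 13.2 and 14 CPM, lower in sets 3 and 4. Over all sets it stood at most at 0.788 CPM in the other 5 gates, while the small gate of border macrophages held 30.8. Endothelial cells carried members of the monocarboxylate family 16. Slc16a4, whose substrates are little known, stood at 54.8, 43.1, 103 and 103 CPM and Slc16a11 at 43.9, 35.3, 54 and 56.6. Both were higher in sets 3 and 4, and pericytes were the next gate, with 2.15 and 5.74 CPM. Of the organic ion family 22, oligodendrocytes carried Slc22a23 with 50.4, 52.5, 65.4 and 70.8 CPM and Slc22a15 with 24.7, 24.6, 19.9 and 20.9. Slco3a1, a carrier of prostaglandins, was shared, with 157 CPM in pericytes, 131 in smooth muscle and 58.6 in oligodendrocytes.

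Of 17 carriers of inorganic ions 2 were carried, beside 16.3% of all genes. Slc24a2, which exchanges sodium for calcium and potassium, stood at 122, 111, 176 and 159.8 CPM in oligodendrocytes. In the other 5 gates it stood at most at 2.15 CPM over all sets. Slc26a10, of the anion exchanger family, was carried by endothelial cells with 21.2, 26.5, 24.2 and 30.7 CPM. Slc12a2, the sodium, potassium and chloride cotransporter NKCC1, was the most abundant member of all with 46381 UMIs. It stood at 902, 1237, 838 and 881 CPM in pericytes and at 715, 686, 787 and 744 in oligodendrocytes, so that neither gate had a margin of 2, while smooth muscle held 278 CPM and T and NK cells 21.8. Slc12a4, a potassium and chloride cotransporter, was highest in mural cells, with 78.9 CPM in pericytes and 50.8 in smooth muscle. Slc9a9, a sodium and proton exchanger of endosomes, had 63.1 CPM in microglia and 14.9 in T and NK cells; it missed the margin in set 1, at 1.72 times.

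Of 9 carriers of vitamins and choline 4 were carried. Slc44a1, a choline carrier, had the highest level among the members carried by oligodendrocytes, with 723, 712, 628 and 662 CPM in sets 1 to 4, and pericytes, its next gate, held 78.2. Endothelial cells carried 2 riboflavin carriers, Slc52a2 with 69.5, 69.1, 52.5 and 46.2 CPM and Slc52a3 with 63, 58.7, 73.3 and 82. They differed in the order of the sets, since Slc52a2 was lower and Slc52a3 higher in sets 3 and 4. Slc19a1, the reduced folate carrier, was carried by pericytes with 114, 102, 162 and 143 CPM from 189 UMIs, against 8.66 in smooth muscle. The 3 pericyte members Slc6a13, Slc30a10 and Slc19a1 stood at 1.3, 4.22 and 7.32 CPM in endothelial cells.

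Of 14 carriers of nucleosides, nucleotides, nucleotide sugars and sugar phosphates 3 were carried. Slc37a2, a sugar phosphate carrier of the endoplasmic reticulum, stood at 10.6, 12.6, 21 and 21.2 CPM in microglia of sets 1 to 4. In the other 5 gates it stood at most at 0.732 CPM over all sets. Slc17a9, which loads vesicles with ATP, stood at 11.7, 11.7, 15.4 and 15 CPM in microglia. Both were somewhat higher in sets 3 and 4, and border macrophages held 25.8 and 16 CPM of them. Slc35a2, which brings UDP-galactose into the Golgi, was carried by oligodendrocytes with 62.9, 64.2, 83.2 and 77.8 CPM. Slc29a3, a lysosomal nucleoside carrier, was nearly equal in 2 gates, with 129.5 CPM in microglia and 129 in oligodendrocytes. By set the gates differed, since microglia held 94.4, 104, 157 and 158 CPM and oligodendrocytes 144, 149, 113 and 117: oligodendrocytes led in sets 1 and 2 and microglia in sets 3 and 4. Slc29a1, the nucleoside carrier of the plasma membrane, had 38.1 CPM in microglia and 10.6 in T and NK cells.

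Carriers of sugars and polyols (2 of 7 carried) and of fatty acids (1 of 4) and the dicarboxylate carrier Slc13a3 gave 4 more oligodendrocyte members. Slc5a11, which takes up myo-inositol, stood at 16.9, 15, 31.7 and 32.4 CPM in sets 1 to 4, and Slc45a3, of a sugar carrier family, at 7.18, 6.45, 13 and 14.1. Slc27a6, of the fatty acid carrier family, stood at 12.9, 12, 29.3 and 28.7 CPM and Slc13a3 at 18, 20.8, 22.7 and 24.5. All 4 were higher in sets 3 and 4 than in sets 1 and 2. Slc2a4, the insulin-regulated glucose carrier GLUT4, was a mural gene, with 188 CPM in smooth muscle, 175 in pericytes and at most 3.04 in the other 4 gates, and was carried by neither mural gate.

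**Figure D3:**
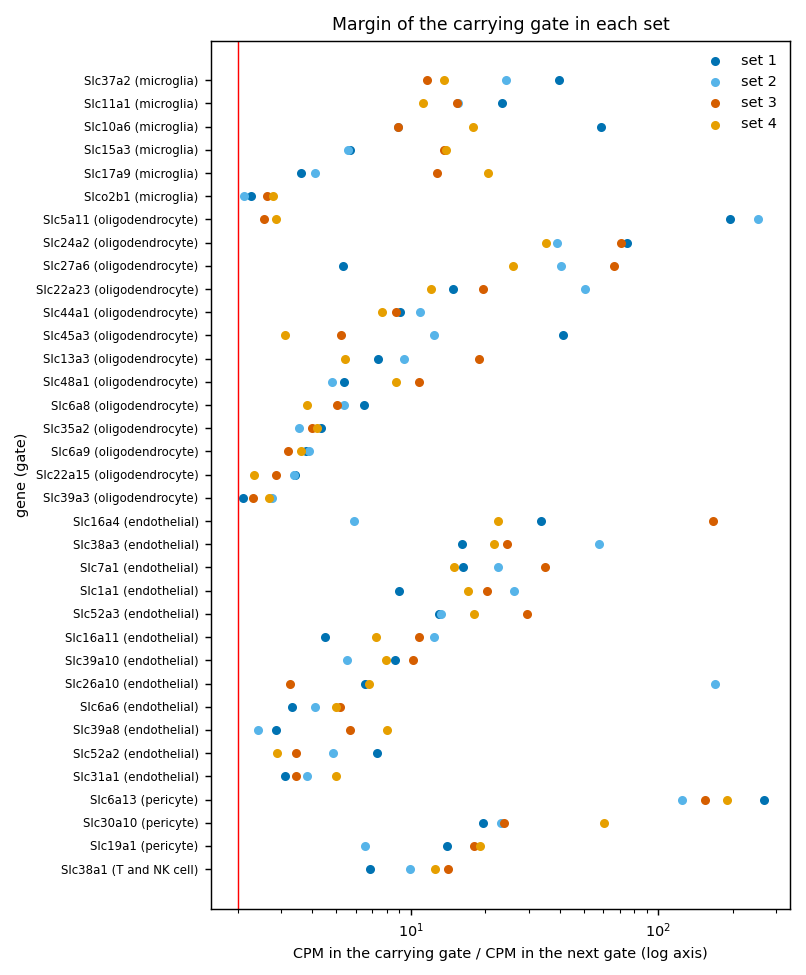
Ratio of the CPM in the carrying gate to that in the next highest gate for 35 carried members, on a log axis, with 1 point per set and a line at the ratio of 2 that the rule asks for. Slco2b1 and Slc39a3 lay close to the line, and Slc6a13 and Slc24a2 far above it.

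Among the most even members over the 6 gates were Slc35a1, Slc38a6, Slc30a5 and Slc30a6, whose highest gate was 2.15, 2.17, 2.19 and 2.21 times the lowest. Slc35a1, which brings CMP-sialic acid into the Golgi, ran from 29.1 CPM in microglia to 62.4 in pericytes. Slc38a6, of the same family as Slc38a2, was low in all gates, at 1.65 to 3.59 CPM. With 513 UMIs over the whole matrix, it had few counts in the gates of fewest cells, so that its ratio is uncertain. Slc30a5 and Slc30a6, which fill secretory compartments with zinc, ran from 8.85 to 19.4 and from 4.54 to 10 CPM.

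A further 6 gates had at least 50 cells but under 20 in at least 1 set and gave no calls. In them, 11 members reached 100 CPM or more and passed their level in all of the larger gates. The ependymal gate (153 cells) held 6 of these. Slc1a3 stood there at 629, 619, 464 and 593 CPM in sets 1 to 4, Slc38a1 at 309, 339, 372 and 444, and Slc6a15, a neutral amino acid carrier, at 166, 153, 136 and 155. The highest levels of these 3 in the larger gates were 190.0, 36.7 and 2.81 CPM, so that T and NK cells carried Slc38a1 only among those gates. Slc20a1, a phosphate carrier, Slc27a3, of the fatty acid carrier family, and Slc44a4, of the choline carrier family, had 156, 126 and 106 CPM in ependymal cells. The endothelial member Slc38a3 also had 195 CPM there.

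Blood cells and border macrophages held the other 5. Slc16a3, the lactate exporter MCT4, had 816 CPM (exact Poisson 95% interval 706 to 939) in the 87 cells of the neutrophil gate and 12.2 CPM in microglia. Slc28a2, a sodium-coupled nucleoside carrier, had 209 CPM in the 118 cells of the monocyte gate, and Slc11a1, which microglia carried among the larger gates, had 114 CPM there. Slc9a9 had 109.5 CPM in 177 border macrophages, and the microglia member Slco2b1 had 203. Slc4a1, the anion exchanger of red cells, had 409 CPM in the 438 cells of the erythroid gate and at most 1.13 CPM in the larger gates. The erythroid gate also held endothelial markers at 34.5%, 27.8%, 37.7% and 39.1% of their level in the endothelial gate in sets 1 to 4, with 179 CPM of Slc39a10; the part of endothelial RNA in it was not tested.

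**Figure D4:**
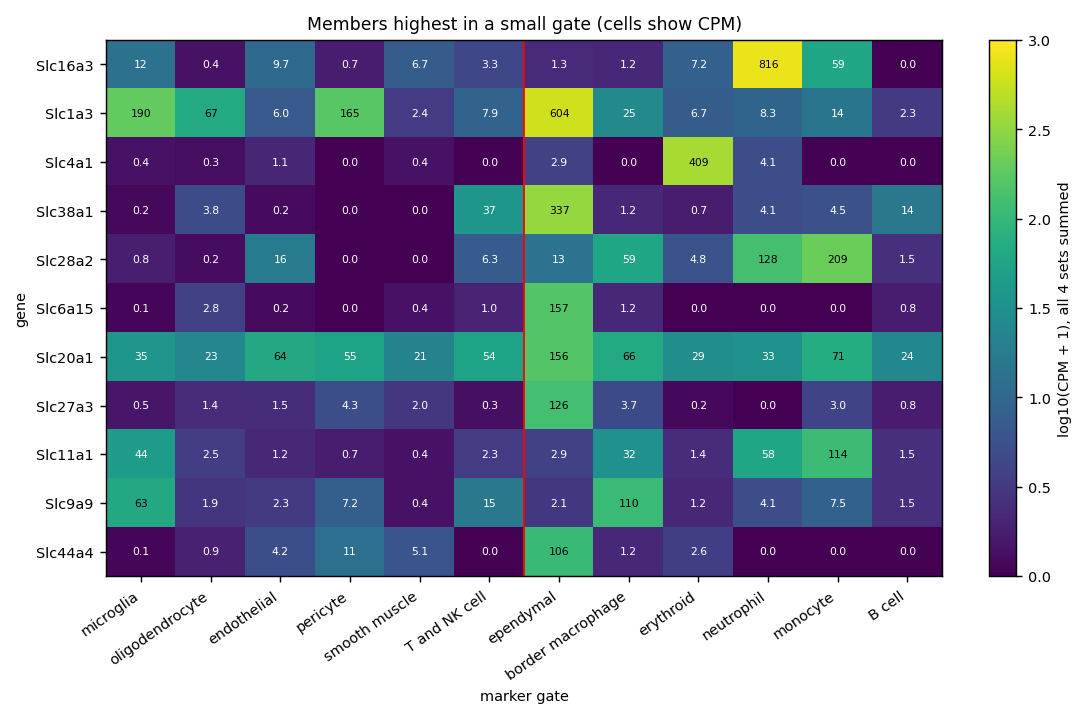
Level of the 11 members that reached 100 CPM or more in a small gate and passed their level in the 6 larger gates, with colour on a log scale of CPM and CPM over all sets printed; a line divides the larger from the small gates. Ependymal cells led for 6 of them, among these Slc1a3 and Slc38a1, and neutrophils for Slc16a3.

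For 1 member most UMIs lay outside every gate; it was singled out after its values were seen. Slc7a3, a carrier of cationic amino acids, had 865 UMIs in the cells used, and 721 of them (83.4%) were in cells that no gate took. In those cells it stood at 33.6, 38.1, 16.1 and 25.2 CPM in sets 1 to 4, lowest in set 3. In the 6 larger gates it stood at most at 0.660 CPM over all sets. The 107 cells of the B cell gate held it at 44.8 CPM, from 59 UMIs. Of the clusters that stayed unnamed, 2 with 664 and 130 cells held it at 50.1 and 81.8 CPM. The smaller had Igh-6, an immunoglobulin heavy chain gene, and Tnfrsf17, a receptor of plasma cells, among its 10 leading genes. The next highest share outside the gates was 24.7%, for Slc7a11.

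The members were then compared between the 4 sets within the 3 largest gates. A member was said to lie apart when its highest set was at least 2 times its lowest, with at least 50 UMIs in these sets together. In microglia 22 of 93 members measured lay apart (23.7%, background 12.2%), in endothelial cells 18 of 80 (22.5%, background 13.6%) and in oligodendrocytes 8 of 87 (9.2%, background 7.56%). In microglia sets 3 and 4 both lay above sets 1 and 2 for 18 of the 22 and below for 4, while of all 1094 genes apart there 63.5% lay above and 26.3% below. In endothelial cells 13 of 18 lay above and 4 below, against 61.6% and 22.1% of 1084 genes, and in oligodendrocytes 3 of 8 (37.5%) each way, against 38.3% and 37.7% of 668 genes. Sets 3 and 4 also had more UMIs per barcode, with medians of 5679.5 and 5167.5 against 4631 and 4383, and what else they share cannot be read from the labels. Under TMM scaling, which rescales each sum by the bulk of its genes, 14 members lay apart in microglia and 10 in endothelial cells. With cells thinned to 1000 UMIs, and those with fewer left out, 9 lay apart in endothelial cells. The calls of Slc7a11 in both gates, of Slc40a1 in microglia and of Slc16a3 in endothelial cells ended.

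**Figure D5:**
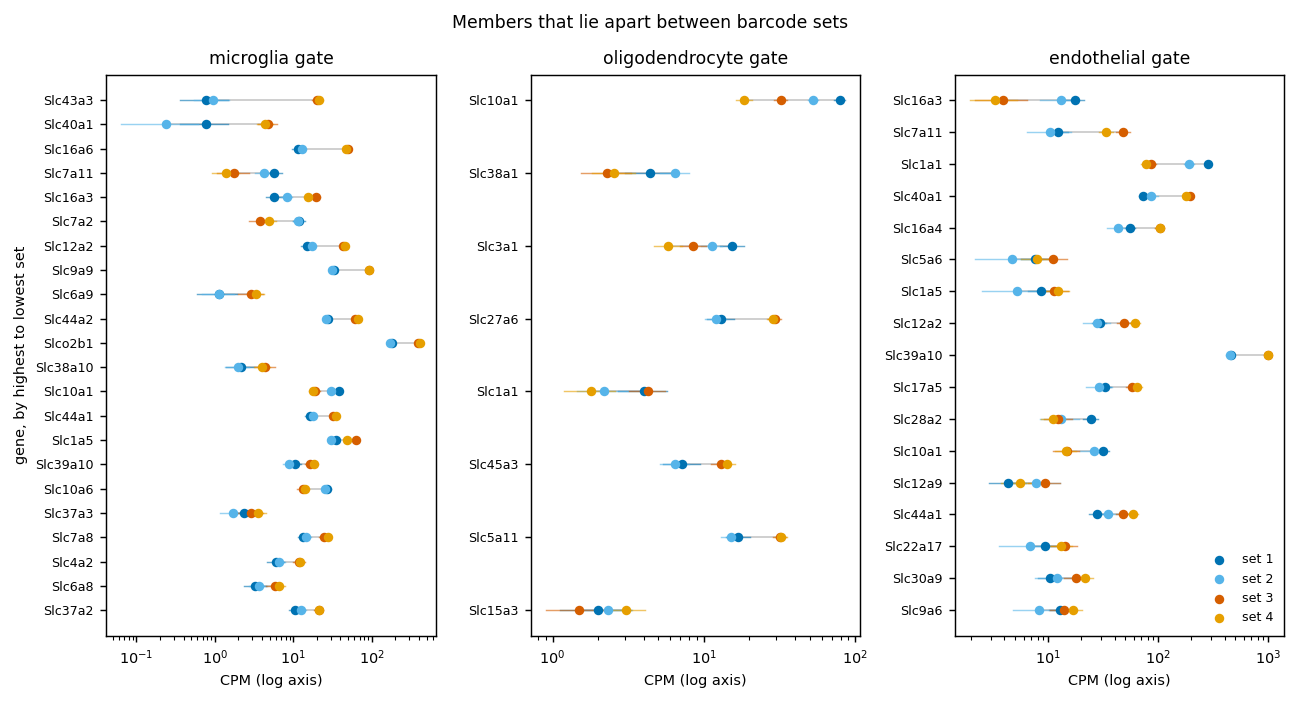
CPM of members that lay apart, in 1 panel per gate on log axes, with 1 point per set and its exact Poisson 95% interval. The widest ratios of the highest to the lowest set were those of Slc43a3 in microglia (27.6), Slc16a3 in endothelial cells (5.36) and Slc10a1 in oligodendrocytes (4.28).

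Slc43a3, which takes up purine bases, had the widest range in microglia, with 0.781, 0.946, 19.8 and 21.6 CPM in sets 1 to 4. These values rest on 9, 16, 225 and 403 UMIs in 9, 16, 199 and 362 cells. The iron exporter Slc40a1 stood at 0.781, 0.236, 4.76 and 4.39 CPM from 9, 4, 54 and 82 UMIs. Both were almost silent in sets 1 and 2, and both still lay apart whichever set was left out, although the ratio of Slc40a1 was 20.1 over all sets and 6.09 without set 2. Slc16a6, of the monocarboxylate family, stood at 11.4, 12.9, 50.2 and 46.4 CPM and the lactate exporter Slc16a3 at 5.73, 8.27, 19.5 and 15.4, both higher in sets 3 and 4. Slc7a11, the cystine and glutamate exchanger, went the other way with 5.73, 4.2, 1.76 and 1.39 CPM, and so did Slc7a2, a carrier of cationic amino acids, with 11.8, 11.6, 3.79 and 4.87. Of the more abundant members, Slco2b1 differed by 2.39 times and Slc9a9, with 33.1, 31.4, 93.5 and 91.6 CPM, by 2.97 times.

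Marker levels in the microglia gate differed between the same sets. Its own 14 markers summed to 23056, 24362, 15943 and 15116 CPM, and the monocyte list to 989.9, 949, 385 and 395. The oligodendrocyte list, with none of its 13 genes at 0, summed to 389.6, 449, 803 and 765 CPM, 0.954%, 1.13%, 1.55% and 1.51% of its level in oligodendrocytes, and made up 0.0531% of the UMIs of the median cell. Some members that oligodendrocytes carry or hold at a high level lay apart here, and others, such as Slc48a1, Slc35a2 and Slc39a3, did not. Higher in the same sets were Slc12a2, at 14.7, 17.2, 43.4 and 45.2 CPM in microglia, and Slc44a1, at 16.6, 17.8, 32.3 and 35. So were Slc6a8, at 3.3, 3.61, 5.81 and 6.63, and Slc6a9, at 1.13, 1.12, 2.91 and 3.32. The part of oligodendrocyte RNA in these values was not tested. Slc44a1 differed by 1.97 times without set 1 and 1.95 without set 4, and Slc6a8 by 1.84 and 1.76, which ended both calls.

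In endothelial cells Slc16a3 had the widest range, with 17.6, 13, 3.86 and 3.29 CPM in sets 1 to 4 from 114, 25, 15 and 18 UMIs. It was high in sets 1 and 2, the reverse of its order in microglia; without set 1 the ratio was 3.95 on 43 UMIs, too few for a call. Slc1a1 was high in the same sets and differed by 3.65 times. Slc40a1 stood at 72.9, 85.7, 194 and 178 CPM, high in sets 3 and 4 as in microglia, whereas in pericytes it stood at 77.6, 87.3, 22.4 and 29.5 CPM, high in sets 1 and 2. Slc16a4 differed by 2.39 times, and by 1.88 without set 2, which ended its call. Slc7a11 stood at 12.2, 10.4, 47.9 and 33.6 CPM, but its 79, 20, 186 and 184 UMIs came from 14, 8, 17 and 30 cells, so that few cells set its level. Slc5a6, the carrier of biotin and pantothenate, stood at 7.57, 4.67, 11.1 and 7.86 CPM, a ratio of 2.37 that was 1.46 without set 2 and 1.68 without set 3, no call in either case.

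Markers of other cells also differed between sets in the endothelial gate, whose own 12 markers summed to 14471, 14401, 12732 and 12645 CPM. The monocyte list, with none of 8 genes at 0, summed to 1801, 1605, 565 and 495 CPM and the border macrophage list, with none of 9 at 0, to 219, 293, 45.5 and 35.1, high in sets 1 and 2 like Slc16a3 and Slc1a1. The microglia list was also higher in sets 1 and 2, at 409, 713, 218 and 289 CPM. The pericyte list, with none of 9 at 0, summed to 117, 126, 237 and 330.3 CPM, higher in sets 3 and 4. So were the oligodendrocyte list, at 239, 315, 516 and 486 CPM, and the smooth muscle list, at 134, 82.1, 232 and 243. The T and NK cell list was higher there too, at 5.1, 2.08, 21.6 and 34.7. The neutrophil list, whose gate held 816 CPM of Slc16a3, summed to 4.33, 11.4, 9 and 14.3, with 4 of 9 genes at 0. In the median cell the monocyte, border macrophage and pericyte lists made up 0.0707%, 0% and 0% of UMIs. The erythroid list, with none of 4 at 0, summed to 2238, 991, 117 and 571 CPM, highest in sets 1 and 2. That was 0.797%, 0.324%, 0.064% and 0.323% of its level in the erythroid gate, which held 94.2 CPM of Slc1a1 and, as given above, endothelial markers. The part of other cells in the members' values was not tested. Slc39a10, from 2987, 856, 3851 and 5437 UMIs, lay apart whichever set was left out.

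Oligodendrocytes had the fewest members apart. Slc10a1, a bile acid carrier best known from liver, stood at 79.1, 52.6, 32.2 and 18.5 CPM in sets 1 to 4, and its ratio of 4.28 was 2.84 without set 1 and 2.46 without set 4. Its highest and lowest sets were the same in microglia, with 38.3, 30.2, 19 and 17.7 CPM, and in endothelial cells, with 31.4, 26, 14.7 and 14.4, where the ratios without set 1 were 1.71 and 1.8 and no longer calls. No gate carried it, and the 6 gates ran from 9.45 to 40.4 CPM. Slc3a1, a subunit of the cystine and dibasic amino acid carrier, stood at 15.4, 11.3, 8.51 and 5.82 CPM, a ratio of 2.65 that was 1.93 without set 1 and 1.81 without set 4, which ended its call. Slc27a6 differed by 2.45 times and kept its call without any 1 set. Slc45a3 differed by 2.19 times and Slc5a11 by 2.16, and by 1.97 and 1.92 without set 2, under the limit. Slc38a1, at 4.39, 6.45, 2.29 and 2.56 CPM, and Slc1a1, at 3.99, 2.18, 4.26 and 1.79, were low here, and their ratios of 2.82 and 2.38 were 1.92 without set 2 and 1.96 without set 4, also under it.

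The same rule was applied to related genes, beside 30.1% of the members and 16.3% of all genes carried. Of the 9 carriers that the rule left out 5 were carried (55.6%), 4 by endothelial cells and 1, Slc2a5, by microglia. Of 32 mitochondrial carriers of family 25 with at least 500 UMIs 4 were carried (12.5%). Of 15 partner genes of solute carriers 6 were carried (40%). Bsg, the chaperone of monocarboxylate carriers, Tfrc, the transferrin receptor, and Heph, an iron oxidase that works with ferroportin, were carried by endothelial cells, with 14302, 398 and 21.7 CPM. Car2, a carbonic anhydrase, was carried by oligodendrocytes, and the sodium pump subunit Atp1b1 by smooth muscle. No test was made between these groups of genes.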

How the data were processed

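Single-cell libraries of dissociated hippocampus were made with 10x 3′ v3 chemistry, per the labels. The authors deposited 1 matrix of UMI counts per gene and barcode, written by Cell Ranger 5.0.0 per the file headers; Cell Ranger, STAR and Rnor_6.0 are named in the submitters' processing notes. Annotation, cell calling and any evening of depth were not given in the sources used here.

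Cells with at least 500 UMIs, 300 genes and at most 20% mitochondrial UMIs were kept (28879 of 31638), and 942 doublets marked by Scrublet per set at an expected rate of 6% were left out, which left 27937 cells. A cell joined a gate when the mean of its capped log marker levels was at least 0.25 and 1.5 times that of the next type, with at least 3 markers found, which gave 24748 cells in gates. The erythroid and dividing-cell scores were not counted as the next type, so that a cell with haemoglobin could still join another gate. Counts were summed by gate and set and divided by all UMIs there. Both kinds of call are rules of size, without p-values. They were run on simulated counts that held counting error only, from the same profile for all gates and sets. Such counts have no spread between cells and no free RNA, so they do not show how often a real call is wrong. Where several genes shared a symbol, that with the most UMIs was used.

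Named were up to 8 carried members per gate by their margin, the 5 most abundant members and the 6 with the widest range between sets in each of the 3 largest gates, the 5 most even ones, those at the limit of 500 UMIs and a fixed list of genes; Slc2a3 of that list had 0 UMIs and Slc5a3 was not in the gene list. The other carried members, the shared mural ones, those of small gates and the partner genes were named after their values were seen. Some genes that this rule names are not reported here. The members and lists were chosen with earlier results of these data known. Promoter windows came from RefSeq (92 of 123 members matched).

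Alternatives were TMM scaling (edgeR 4.0.16, R 4.3.3), the mean of per-cell CPM, stricter cells, gates, UMI minimums and fold, doublets kept, clusters in place of gates, thinned cells, each set left out, the next gate taken from outside the same group of types, and, added after the data were seen, haemoglobin and mitochondrial UMIs left out. Python 3.11.15, numpy 2.4.6, scipy 1.17.1, pandas 2.3.3, scanpy 1.11.5, igraph 0.11.9 and matplotlib 3.10.9 were used.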

Additional observations from a re-analysis of the deposited data

How the results depend on the processing

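Of 124 counts of members recomputed under alternatives, 106 stayed within 1.5 times. Of the 37 carried members, 11 kept their call in every setting, 22 in every setting but the clusters of all types, and 37 under TMM scaling. With clusters in place of the gate 18 members were carried, 0 of them by microglia and 0 by endothelial cells; with clusters of the same 6 types alone, added after the data were seen, 33 were. Under the clusters of all types the ratio of the microglia to the next type turned to 0.987 for Slc37a2, 0.339 for Slc11a1 and 0.529 for Slc10a6, where monocytes and border macrophages also entered. Of 48 calls of lying apart, 7 held in every setting. Microglia gave 14 under TMM scaling, whose factors were 0.718, 0.721, 0.787 and 0.802 in sets 1 to 4, and 7 at a fold of 3. Oligodendrocytes gave 13 with doublets kept, 5 with cells thinned to 1000 UMIs, 5 with a higher minimum of UMIs, 1 at a fold of 3, and 5 to 7 with 1 set left out. Endothelial cells gave 10 under TMM scaling, 9 thinned, 3 at a fold of 3, and 11 to 15 with 1 set left out. In all 3 gates 11 lay apart at a fold of 3 and 31 to 43 with 1 set left out. The cause of these differences was not tested. No paired analysis was possible because no source ties a suffix to a titled library and the results come from no test.

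Depth limits the rare members and the small gates most: the pericyte gate of set 2 held 49 cells, and a value of 0 there allows up to 3 counts. The sets are 4 unassigned libraries, so that no value says what occlusion or stress did. Gates came from markers and not from an annotation by the authors, and free RNA was not removed.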
